A study of Homo sapiens with 33 samples.

Results

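DPP4, ANGPTL4 and TMEM178B are 3 of the 58302 genes in the expression matrix, and they were chosen because they stood among the largest rises with palbociclib in palbociclib-sensitive mesothelioma lines. The values that chose them are the 11 differences between a palbociclib library and its DMSO control, and these differences are therefore given as a description, with no test. Of the 994 genes called higher over those 11 pairs, 413 were higher in every pair, and among these 413 ANGPTL4, TMEM178B and DPP4 held ranks 2, 3 and 4 by mean log2 difference. DPP4 stood at 2.43, and the next gene was PLAT, the tissue-type plasminogen activator, at 2.36. C3 ranked first, at 2.71, and is not 1 of the 3 genes, so no cutoff on this value sets them apart. The other genes among the first 8 were CCND2 at 2.27, LIPH at 2.14 and CPA4 at 2.09.

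Palbociclib blocks the cyclin D-dependent kinases CDK4 and CDK6 and so arrests cells that still have a working retinoblastoma protein. RNA-seq was done on 33 libraries of 6 established human cell lines, which were 14 DMSO, 14 palbociclib, 4 washout libraries and 1 untreated library. H2052, H2452, H28 and MSTO-211H are malignant pleural mesothelioma lines that are sensitive to the drug. The resistant lines were MPP89, a mesothelioma line whose RB1 gene is mutated, and MeT-5A, which are SV40-immortalized mesothelial cells. Cells were kept in 0.1% DMSO or in 1 µM palbociclib for 9 or 10 days. For washout, cells of the 4 sensitive lines were rinsed after 10 days in palbociclib and left without drug for 48 hours, 1 library per line. The titles of the washout libraries carry no experiment number. Each was matched to the 10-day DMSO and palbociclib libraries of its line, and these 3 libraries are called 1 experiment below. If the matched libraries were taken at 10 days, washout cells were 48 hours longer in culture, which cannot be told apart from the loss of drug. There were 2 pairs of DMSO and palbociclib libraries for H2052 and MPP89, 3 for H2452, H28 and MSTO-211H, and 1 for MeT-5A, which also had the untreated library. Each line is 1 established line, so repeated experiments on it do not stand for other tumours. No line of the resistant class had a washout library.

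DPP4 (CD26) is a serine exopeptidase of the cell surface that removes dipeptides from the amino end of chemokines, incretins and neuropeptides, binds adenosine deaminase, and is known as a surface marker of senescent fibroblasts. ANGPTL4 is a secreted protein that inactivates lipoprotein lipase, and its gene is a known target of the PPAR receptors, of glucocorticoids and of hypoxia. TMEM178B is a little studied multi-pass membrane protein, and its paralog TMEM178A is known to restrain store-operated calcium entry through STIM1. CD26 is known on the surface of many malignant mesotheliomas.

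The 3 genes lie on different chromosomes of GRCh38. In the GENCODE 44 annotation DPP4 (ENSG00000197635) runs from 161992245 to 162074394 on the minus strand of chromosome 2, ANGPTL4 (ENSG00000167772) from 8363289 to 8374370 on the plus strand of chromosome 19, and TMEM178B (ENSG00000261115) from 141074064 to 141480380 on the plus strand of chromosome 7. All 3 are protein coding. The RefSeq starts of DPP4 and ANGPTL4 used below lie inside the GENCODE bounds of these genes. Their promoters are shown because the genes were grouped by a shared rise. The windows are from RefSeq (GRCh38.p14) and hold 250 bases before and 50 bases after the annotated start, written along the gene from 5′ to 3′, with motif matches in capitals. They lie at chr2:162074166-162074465 (minus strand), chr19:8363905-8364204 (plus strand) and chr7:141073814-141074113 (plus strand).
DPP4: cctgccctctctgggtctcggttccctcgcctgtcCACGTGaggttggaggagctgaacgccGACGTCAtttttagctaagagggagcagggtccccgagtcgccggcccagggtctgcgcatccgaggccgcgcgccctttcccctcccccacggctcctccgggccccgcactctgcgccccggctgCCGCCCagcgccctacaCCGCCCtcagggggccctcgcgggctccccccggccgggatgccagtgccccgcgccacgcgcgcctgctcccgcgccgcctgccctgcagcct
ANGPTL4: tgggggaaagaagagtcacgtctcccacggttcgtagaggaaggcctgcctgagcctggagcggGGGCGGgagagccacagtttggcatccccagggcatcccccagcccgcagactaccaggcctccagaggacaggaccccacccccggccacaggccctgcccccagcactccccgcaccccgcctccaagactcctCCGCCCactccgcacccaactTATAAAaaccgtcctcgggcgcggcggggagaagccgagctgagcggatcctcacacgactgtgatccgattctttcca
TMEM178B: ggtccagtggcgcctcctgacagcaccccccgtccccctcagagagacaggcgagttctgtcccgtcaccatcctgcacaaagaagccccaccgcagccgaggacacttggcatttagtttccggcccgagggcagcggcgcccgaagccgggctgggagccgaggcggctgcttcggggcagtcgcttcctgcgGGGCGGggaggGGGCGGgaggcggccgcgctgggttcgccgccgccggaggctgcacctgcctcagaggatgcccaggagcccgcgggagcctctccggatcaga

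Each promoter held 2 GC boxes (GGGCGG on either strand), a motif present in 44.9% of the 34796 RefSeq promoters of the same length. Their GC content was 75% for DPP4, 66.3% for ANGPTL4 and 72% for TMEM178B, against a median of 58.7% over all promoters. ANGPTL4 alone had a TATA box (TATAAA, in 11.6% of promoters), which starts 29 bases before the annotated start. DPP4 alone had an E-box (CACGTG, in 7.205%) and the core of a cAMP response element (TGACGTC on either strand, in 3.43%). The letters searched for E2F (TTTNNCGC, in 6.86% of promoters), CHR (TTTGAA, 15.2%), AP-1 (TGANTCA, 7.73%) and TEAD (GGAATG, 14.04%) were in none of these 3 windows on either strand. A match is a run of letters and not a measured binding site.

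Levels are in CP20M, the reads of a gene per 20000000 counted reads, which the authors rounded up to whole numbers. Differences are on the log2(CP20M + 10) scale, which understates changes of genes at low levels. A gene was tested where it reached 100 CP20M in at least 1 library, which 17803 genes did, and called where the Benjamini-Hochberg FDR was under 0.05 and the fold change above 1.5 in either direction. All 3 genes passed this filter, but ANGPTL4 reached 100 CP20M only in H2052 and H2452. Over the 11 sensitive pairs 5.58% of the tested genes were called higher and 9.37% lower, and 4.35% were higher in all 11 pairs. Over these pairs the mean log2 difference was 2.43 for DPP4 (SD 1.33, range 0.92 to 4.87), 2.53 for ANGPTL4 (SD 1.78, range 0.21 to 5.43) and 2.46 for TMEM178B (SD 1.40, range 1.00 to 5.54). These near-equal means covered unlike patterns by line, as the plot of levels by library shows. In bulk libraries, more cells that express a gene and more RNA of it per cell cannot be told apart.

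**Figure D1:**
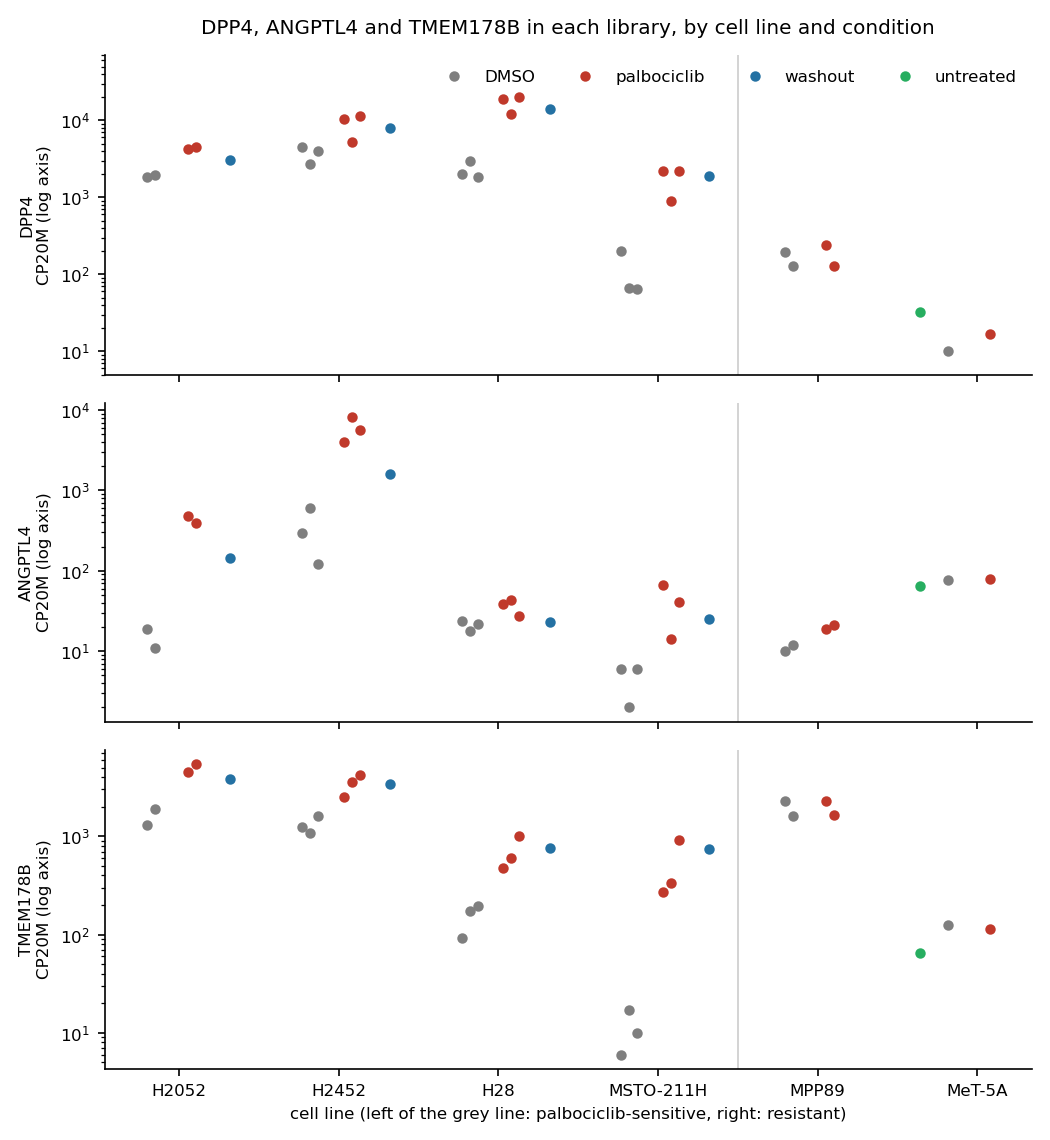
CP20M (log axis) of DPP4, ANGPTL4 and TMEM178B, 1 point per library, by cell line and condition, with sensitive lines left of the grey line and resistant lines right of it. In each sensitive line the palbociclib points lie above the DMSO points. DPP4 was highest in palbociclib-treated H28, ANGPTL4 in palbociclib-treated H2452, and TMEM178B in palbociclib-treated H2052.

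DPP4 was measured at 1984, 2936 and 1814 CP20M in the DMSO libraries of H28 and at 19238, 12126 and 20192 CP20M in the matching palbociclib libraries. In MSTO-211H it was at 204, 66 and 65 CP20M in DMSO and at 2196, 906 and 2185 in palbociclib. Those lines had the larger differences, with a mean log2 difference of 3.94 ± 0.81 (SD, n = 3) in MSTO-211H and 2.93 ± 0.77 (SD, n = 3) in H28, or 15.4-fold and 7.61-fold on the CP20M + 10 scale. H2452 had 4460, 2732 and 4008 CP20M in DMSO and 10351, 5187 and 11494 in palbociclib. H2052 had 1844 and 1949 CP20M in DMSO and 4306 and 4478 in palbociclib. The difference was smaller in these lines, at 1.22 ± 0.30 (SD, n = 3) in H2452 and 1.21 ± 0.02 (SD, n = 2) in H2052. H28, with overlapping DMSO levels to those of H2052, had the larger difference given above. The lowest palbociclib library was above the highest DMSO library in each of the 4 lines. The genes were chosen for large rises over these pairs, which makes such gaps likely for all 3. The share of all tested genes with such gaps was not counted.

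By mean level in DMSO the order of the lines for DPP4 was H2452 (3733 ± 896 CP20M, SD, n = 3), H28 (2245 ± 605, SD, n = 3), H2052 (1897 ± 74.2, SD, n = 2), MPP89 (162 ± 46.7, SD, n = 2), MSTO-211H (112 ± 80.0, SD, n = 3) and MeT-5A (10, n = 1). The library ranges of H2452 and H28 overlapped, as did those of H28 and H2052 and those of MPP89 and MSTO-211H. The gap between H2052 and MPP89 was wider than the spread within either line. In palbociclib the order changed, since H28 stood above H2452 and MSTO-211H above MPP89. MSTO-211H thus began at the DPP4 level of the resistant line MPP89 and reached, in drug, 906 CP20M in its lowest library, above the 240 CP20M of the highest MPP89 library.

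An exon of DPP4 overlaps DPP4-DT (AC008063.1 in the matrix), a long non-coding RNA on the opposite strand. DPP4-DT had 3.08% to 13.3% of the DPP4 value, with a median of 7.32%, in the 28 libraries where DPP4 was at 100 CP20M or more. The libraries were directional, but the strand setting of the counting is not given in the sources used here, so reads of the overlapping part may be uncertain for this pair.

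ANGPTL4 had its large differences in the other sensitive lines. In H2452 it was at 296, 603 and 121 CP20M in DMSO and at 3972, 8172 and 5640 CP20M in palbociclib. In H2052 it was at 19 and 11 CP20M in DMSO and at 484 and 394 in palbociclib. The mean log2 differences were 4.29 ± 0.99 (SD, n = 3) in H2452 and 4.18 ± 0.12 (SD, n = 2) in H2052, or 19.6-fold and 18.1-fold on the CP20M + 10 scale. The gene stayed low in the lines where DPP4 differed most. H28 had 24, 18 and 22 CP20M in DMSO and 39, 43 and 27 in palbociclib, a mean log2 difference of 0.55 ± 0.36 (SD, n = 3). MSTO-211H had 6, 2 and 6 CP20M in DMSO and 67, 14 and 41 in palbociclib, a mean log2 difference of 1.65 ± 0.63 (SD, n = 3). The groups did not overlap in any of the 4 lines, although the H28 ranges, 18 to 24 and 27 to 43 CP20M, were only 3 CP20M apart.

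The low ANGPTL4 values rest on few reads. In pair 2 of MSTO-211H they were 1 read in DMSO and 10 reads in palbociclib, a ratio per depth of 10.1 with an exact 95% interval from 1.43 to 438, which covers counting error only. In DMSO the order of the lines was H2452 (340 ± 244 CP20M, SD, n = 3), MeT-5A (76, n = 1), H28 (21.3 ± 3.06, SD, n = 3), H2052 (15 ± 5.66, SD, n = 2), MPP89 (11 ± 1.41, SD, n = 2) and MSTO-211H (4.67 ± 2.31, SD, n = 3). The ranges of H28 and H2052 overlapped, and so did those of H2052 and MPP89. H2052 thus had no more ANGPTL4 than H28 in DMSO, and its palbociclib libraries were above each H28 library by a wide margin. ANGPTL4 overlaps no other annotated gene.

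TMEM178B differed most in MSTO-211H, where it was close to absent without drug. It was at 6, 17 and 10 CP20M in the DMSO libraries of this line and at 274, 331 and 923 CP20M in the palbociclib libraries, a mean log2 difference of 4.45 ± 0.98 (SD, n = 3) or 21.9-fold on the CP20M + 10 scale. H28 had 93, 173 and 197 CP20M in DMSO and 473, 606 and 1001 in palbociclib, a difference of 2.09 ± 0.29 (SD, n = 3). H2052 and H2452 already carried the gene at a high level, as they did DPP4. H2052 had 1302 and 1896 CP20M in DMSO and 4540 and 5391 in palbociclib, and the difference was 1.65 ± 0.21 (SD, n = 2). H2452 had 1257, 1071 and 1621 CP20M in DMSO and 2524, 3593 and 4196 in palbociclib, and the difference was 1.37 ± 0.37 (SD, n = 3). The palbociclib and DMSO ranges were apart in each of the 4 lines.

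In DMSO the highest mean level of TMEM178B was in a resistant line. The order was MPP89 (1954 ± 462 CP20M, SD, n = 2), H2052 (1599 ± 420, SD, n = 2), H2452 (1316 ± 280, SD, n = 3), H28 (154 ± 54.5, SD, n = 3), MeT-5A (125, n = 1) and MSTO-211H (11 ± 5.57, SD, n = 3). The ranges of MPP89 and H2052 overlapped, as did those of H2052 and H2452, and the MeT-5A value lay within the H28 range. The step from H2452 to H28 was wider than the spread within either line. The gene spans 5 other annotated genes, none of which touches one of its exons.

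Levels were also divided by the length of all annotated exons of a gene together. This length was 14432 bases for DPP4, 2475 for ANGPTL4 and 10786 for TMEM178B. A single transcript can be shorter, which understates its level, so the order between genes depends on the length used. By this length ANGPTL4 in palbociclib-treated H2452 had the highest mean level, at 2395 CP20M per kb. DPP4 followed in H28, at 1191 CP20M per kb, and TMEM178B in H2052 reached 460 CP20M per kb. In H28 the levels per kb in palbociclib were 1191 for DPP4, 64.3 for TMEM178B and 14.7 for ANGPTL4. In H2452 the order was different, with 2395 for ANGPTL4, 624 for DPP4 and 319 for TMEM178B.

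**Figure D2:**
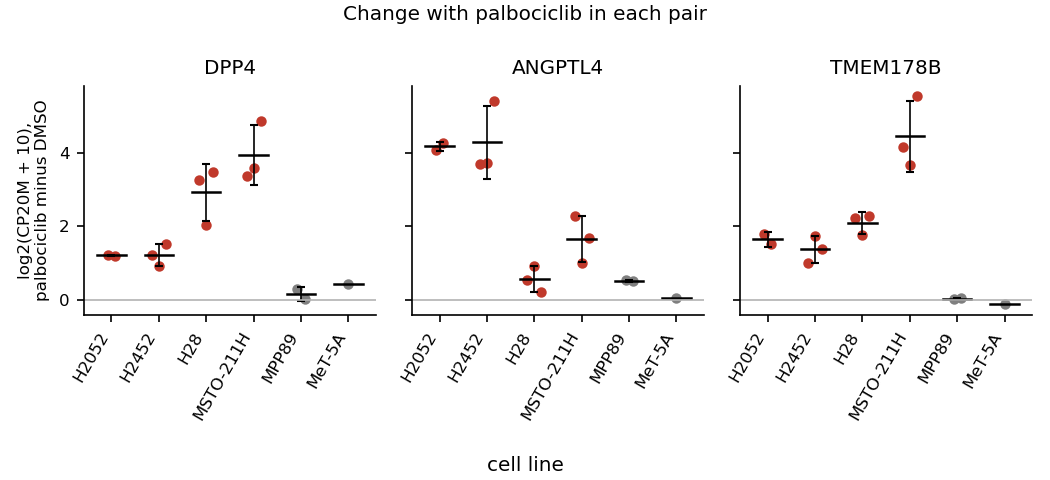
Palbociclib minus DMSO on the log2(CP20M + 10) scale for each pair (points) of each cell line, with the mean of the line (black bar) and its SD (error bar, lines with 2 or 3 pairs), in red for sensitive and grey for resistant lines. The means of DPP4 and TMEM178B are largest in MSTO-211H, at 3.94 and 4.45, whereas those of ANGPTL4 are largest in H2452 and H2052, at 4.29 and 4.18.

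The same pairs lost expression of cell cycle genes. All 12 proliferation genes examined (such as MKI67, CDK1 and TOP2A) fell over the 11 pairs, with a median log2 difference of -2.62 against -0.11 for all tested genes. By pair, the median of these 12 genes lay between -4.04 and -0.76. The smallest fall, -0.76, was in pair 1 of MSTO-211H, where DPP4 still differed by 3.37, ANGPTL4 by 2.27 and TMEM178B by 4.15. In pair 3 of MSTO-211H the 12 genes were lower by a median of -2.62, and DPP4 and TMEM178B had their highest differences of all pairs, 4.87 and 5.54. The part of these genes in the values of DPP4, ANGPTL4 and TMEM178B was not tested.

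The lines carried epithelial keratins in each library, with KRT8 between 3480 and 91185 CP20M and KRT18 between 1497 and 47685 CP20M. Mesothelial markers varied by line: PDPN was at 0 in 10 libraries, CALB2 in 6 and WT1 and UPK3B in 1 each, and KRT19 was at 0 in 3 libraries. Of the 8 mesothelial and keratin genes only CALB2, encoding calretinin, was called with palbociclib, higher by 1.69 ± 0.41 (SE, limma, adjusted p = 0.00409). The summed level of the 8 genes was 41993 to 56743 CP20M in the DMSO libraries of MSTO-211H and 111273 to 140604 in its palbociclib libraries. In H2452 it was 44426 to 74745 CP20M in DMSO and 28531 to 52302 in palbociclib. Its part in the rises was not tested. The cells known for DPP4 or ANGPTL4 in tissue left little trace. Of the 5 T cell markers CD3E was at 0 in all 33 libraries, and the highest value of any was 42 CP20M, of PTPRC. The 4 adipocyte markers reached at most 27 CP20M, and the 4 endothelial markers at most 144, with neither of the 2 that passed the filter called.

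The libraries of the resistant lines did not enter the choice, so DPP4 and TMEM178B could be tested there. Neither was called, and nor was any other tested gene. ANGPTL4 passed the filter on low values only through H2052 and H2452, and its values in the resistant lines, 10 to 78 CP20M, are given without a test. DPP4 was at 195 and 129 CP20M in the DMSO libraries of MPP89 and at 240 and 130 in palbociclib, and in MeT-5A at 10 and 17. ANGPTL4 was at 10 and 12 CP20M in MPP89 in DMSO and at 19 and 21 in palbociclib, and in MeT-5A at 76 and 78. TMEM178B was at 2281 and 1627 CP20M in MPP89 in DMSO and at 2310 and 1660 in palbociclib, and in MeT-5A at 125 and 113. Replicates 1 and 2 of MPP89 differed more from each other than DMSO and palbociclib did within a pair for TMEM178B and DPP4. The ANGPTL4 values of MPP89 did not overlap between the conditions. The share of all tested genes without such overlap in this line was not counted, so no response is read from this gap.

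Over the 3 resistant pairs the log2 difference was 0.24 ± 0.12 for DPP4 (SE, limma adjusted p = 0.689) and -0.03 ± 0.05 for TMEM178B (SE, adjusted p = 0.903). For ANGPTL4 the mean was 0.35. DPP4 and ANGPTL4 were higher in 3 of 3 pairs and TMEM178B in 2 of 3, some of them by little. DPP4 was at 129 and 130 CP20M in pair 2 of MPP89, and ANGPTL4 at 76 and 78 in MeT-5A. The share of all tested genes higher in 3 of 3 pairs was not counted. The MPP89 values of ANGPTL4 were 9 reads in each DMSO library and 16 in each palbociclib library. In this comparison 0% of the tested genes were called higher and 0% lower by limma, with 1258 at an unadjusted p under 0.05. A difference that misses the threshold with 3 pairs is not shown to be absent. The proliferation genes had a median difference of 0.00 there, with none of the 12 called. The difference between sensitive and resistant lines was not tested, since the sensitive pairs chose the genes.

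After 48 hours without drug each of the 3 genes lay between the palbociclib and the DMSO library of its experiment in each of the 4 sensitive lines. The plot of the washout experiments shows these values. The palbociclib and DMSO libraries of these experiments are among those that chose the genes, so their washout values are given with their spread over lines and no test. DPP4 was at 3095 CP20M in H2052 and 7919 in H2452, and at 14033 in H28 and 1893 in MSTO-211H. This was 69.1%, 68.9%, 69.5% and 86.6% of the palbociclib value of the same experiment. Set against all palbociclib libraries of a line, DPP4 after washout lay within their range in H2452, H28 and MSTO-211H. Those ranges were 5187 to 11494, 12126 to 20192 and 906 to 2196 CP20M. In H2052 it lay below the range of 4306 to 4478 CP20M. The log2 difference of washout from palbociclib was -0.45 ± 0.16 (SD, n = 4 lines) and from DMSO 2.31 ± 1.86 (SD, n = 4 lines).

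TMEM178B after washout was at 3816 CP20M in H2052 and 3416 in H2452, and at 752 in H28 and 738 in MSTO-211H, or 70.8%, 81.4%, 75.1% and 80.0% of the palbociclib value. The log2 difference from palbociclib was -0.38 ± 0.09 (SD, n = 4 lines) and from DMSO 2.295 ± 1.99 (SD, n = 4 lines). In MSTO-211H, where DMSO was at 10 CP20M in that experiment, the gene thus stayed at 738 CP20M. Set against all palbociclib libraries of a line, TMEM178B after washout lay within their range in H2452, H28 and MSTO-211H. Those ranges were 2524 to 4196, 473 to 1001 and 274 to 923 CP20M. In H2052 it lay below the range of 4540 to 5391 CP20M. ANGPTL4 was closer to DMSO in the lines where it had been high in drug. It was at 145 CP20M in H2052 and 1599 in H2452, which was 36.8% and 28.4% of the palbociclib value. H28 had 23 CP20M after washout, beside 27 in palbociclib and 22 in DMSO, and MSTO-211H had 25, beside 41 and 6. Only in MSTO-211H did ANGPTL4 lie within the range of all palbociclib libraries of the line, 14 to 67 CP20M. The log2 difference of ANGPTL4 from palbociclib was -0.98 ± 0.75 (SD, n = 4 lines) and from DMSO 1.92 ± 1.63 (SD, n = 4 lines).

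**Figure D3:**
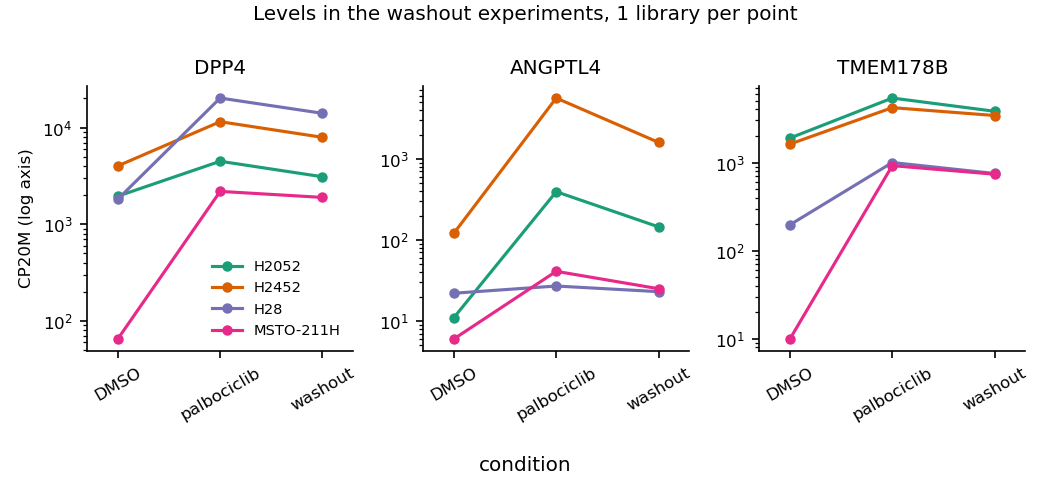
CP20M (log axis) in the DMSO, palbociclib and washout library of the 4 washout experiments, 1 point per library and 1 coloured line per cell line. Each gene is lower after washout than in palbociclib and higher than in DMSO in all 4 lines. The widest gap is that of ANGPTL4 in H2452, at 5640 CP20M in palbociclib and 1599 after washout.

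On the log2(CP20M + 10) scale, 83.7% of the mean rise of these 4 experiments remained for DPP4, 85.8% for TMEM178B and 66.3% for ANGPTL4. These ratios of means give most weight to the lines with the largest rises. By line the share of the log2 rise kept ran from 55.6% in H2052 to 95.8% in MSTO-211H for DPP4 (mean 75.2%). For TMEM178B it ran from 66.9% in H2052 to 94.2% in MSTO-211H (mean 80.4%). For ANGPTL4 it ran from 21.2% in H28, where the rise was small, to 67.6% in H2052 (mean 55.7%). Shares of the rise in CP20M itself are smaller than these. ANGPTL4 in H2452 kept 66.6% of its log2 rise, but went from 121 to 5640 CP20M with drug and was at 1599 after washout. By the ratio of means, the median of the 413 genes called higher over the sensitive lines and higher in every pair was 82.2% (quartiles 72.0% and 91.0%), with DPP4 and TMEM178B between the quartiles and ANGPTL4 below the lower one. Values below palbociclib in all 4 lines were seen in 7.96% of the tested genes and in 44.3% of the 413. Values above DMSO in all 4 lines were seen in 89.6% of the 413, a share that the choice of genes higher in every pair makes large. Between washout and palbociclib 1.40% of the tested genes were called higher and 0% lower (limma, 2322 genes in either direction at an unadjusted p under 0.05). Between washout and DMSO 2.81% were called higher and 2.95% lower. The proliferation genes moved the other way from the 3 genes, with 10 of 12 called higher after washout than in palbociclib and a median difference of 2.41. That count was 0 without H2052, without H2452 or without MSTO-211H, and 3 without H28.

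The nearest relatives of the 3 genes were examined as families. Of the 10 genes in the DPP4 protease family 9 were tested. Of the 8 other than DPP4, 2 were called higher over the sensitive pairs, or 25% beside 5.58% of all tested genes. FAP, the fibroblast activation protein and closest relative of DPP4, rose by a log2 difference of 0.91 ± 0.28 (SE, limma adjusted p = 0.0156) and was higher in 9 of 11 pairs. PREPL, a relative of prolyl endopeptidase, rose by 0.63 ± 0.07 (SE, adjusted p = 2.50e-05) and was higher in 11 of 11. DPP9, a cytosolic dipeptidyl peptidase, had a log2 difference of -0.31 ± 0.07 (SE, adjusted p = 0.00207), under the fold threshold. DPP7, DPP8, DPP10, PREP and PRCP were not called, with differences from -0.10 to 0.24, and DPP6 reached no more than 2 CP20M. The median of the 8 was 0.02, beside -0.11 for all tested genes, and the count called was 1 without H2052, 1 without H28 and 1 with line means as units. After washout FAP was called higher than in DMSO, by 1.36 ± 0.36 (SE, limma adjusted p = 0.0416), a call that was lost when any 1 of the 4 lines was left out. In the resistant lines, where no tested gene was called, none of the 9 was.

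Among the 8 angiopoietin-like genes 5 were tested. Of the 4 other than ANGPTL4 none was called higher and 1 lower, with a median of 0.07. ANGPTL2, a secreted relative linked to inflammation, fell by 0.70 ± 0.22 on the log2 scale (SE, limma adjusted p = 0.0164), a call that was lost without H2452, without H28, with median-of-ratios scaling, with pseudocount 50 and with line means as units. The mean level of ANGPTL7 was 15.1 CP20M over the 11 DMSO libraries and 114 over those with palbociclib, and it was higher in 8 of 11 pairs (mean log2 difference 0.77). No DMSO library of the sensitive lines reached 100 CP20M for this gene, so the difference carries no test. ANGPTL6 differed by 0.22 and ANGPTL8, which works with its relatives in the control of lipoprotein lipase, by -0.07, and neither was called. ANGPTL1 and ANGPTL5 stayed at or under 20 CP20M in all libraries.

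TMEM178A, the paralog of TMEM178B, was also higher with palbociclib, at far lower values. It ranged from 4 to 42 CP20M over the 11 DMSO libraries of the sensitive lines (median 21) and from 27 to 113 over the 11 palbociclib libraries (median 60). The mean log2 difference was 1.27 and 11 of 11 pairs were higher. The gene passed the filter through 1 library alone, palbociclib-treated H2052 at 113 CP20M, so its differences carry no test. The groups overlapped across lines but not within one. In MPP89 the gene was at 20 CP20M in both DMSO libraries and at 15 and 11 in palbociclib, and in MeT-5A at 2 and 6. After washout it was at 63 CP20M in H2052, 50 in H28 and 53 in MSTO-211H, but at 5 in H2452, below the DMSO range of 11 to 21 in that line.

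**Figure D4:**
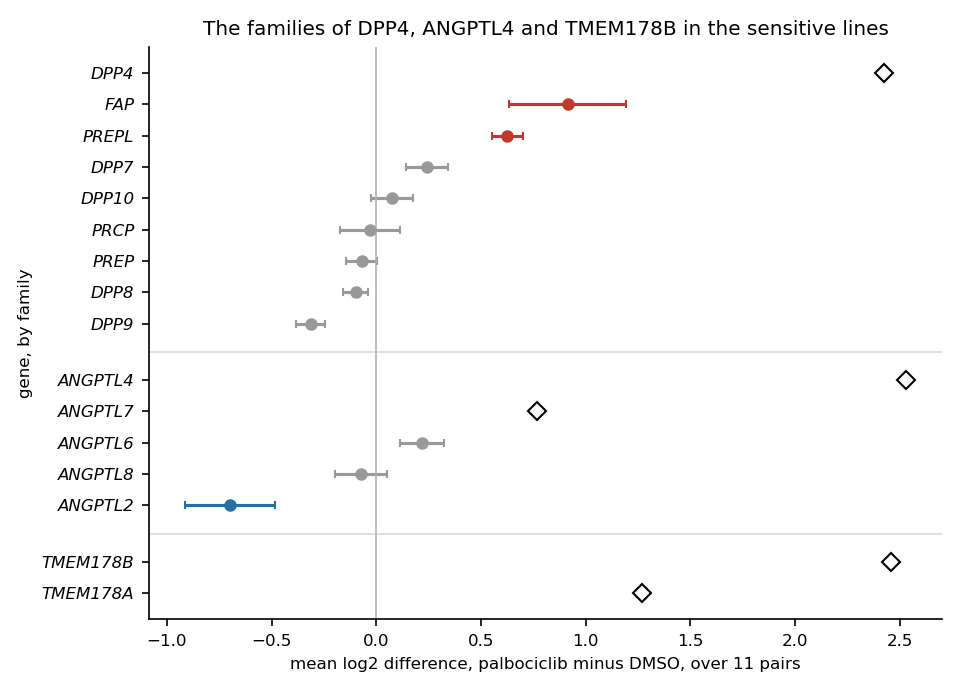
Mean log2 difference, palbociclib minus DMSO, over the 11 sensitive pairs for the tested genes of the DPP4, angiopoietin-like and TMEM178 families. Circles carry the SE and are red where called higher, blue where called lower and grey where not called, and open diamonds carry no test, being the 3 genes chosen on these values and TMEM178A and ANGPTL7, which reached the filter in palbociclib but not DMSO libraries of these lines. FAP and PREPL are called higher and ANGPTL2 lower.

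Substrates and partners of DPP4 were mostly low in these lines, with 9 of the 20 listed genes tested. Of these 9 genes 3 rose (33.3%) and none fell over the sensitive pairs, where 5.58% of all tested genes were called higher and 9.37% lower. Among them, CXCR4, the receptor of the DPP4 substrate CXCL12, rose by 1.13 ± 0.24 on the log2 scale (SE, limma adjusted p = 0.00200), and IGF2R, a receptor that binds DPP4, by 0.62 ± 0.07 (SE, adjusted p = 2.63e-05). The list had a median of 0.24, beside -0.11 for all tested genes. The count was 2 without H2052 and 2 without MSTO-211H. Of the 9, only IGF2R was also called above DMSO after washout, where 2.81% of all tested genes were. Its difference was 0.62 ± 0.10 (SE, limma adjusted p = 0.00935), and the call was lost without H2052 or without MSTO-211H.

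In the lipoprotein lipase pathway, in which ANGPTL4 acts, 14 of 19 genes were tested, 3 rose (21.4%, beside 5.58% of all tested genes) and none fell, and the median was 0.04. LRP1, a lipoprotein receptor, rose by 1.27 ± 0.15 on the log2 scale (SE, limma adjusted p = 2.78e-05). PCSK5 and PCSK7, which belong to the proprotein convertases, a group of enzymes that cut ANGPTL proteins, rose by 0.97 ± 0.25 (SE, adjusted p = 0.00598) and 0.66 ± 0.11 (SE, adjusted p = 0.000236). The count was 2 without H2052, 2 without H2452 and 2 with line means as units. After washout these 3 genes were called above DMSO, where 2.81% of all tested genes were. The count called above was 0 without H2052, 2 without H2452 and 1 each without H28 and without MSTO-211H.

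Genes that share known regulators with ANGPTL4 were counted next. Of 16 tested PPAR receptors and targets 1 rose and 1 fell (6.25% each, beside 5.58% higher and 9.37% lower of all tested genes), which is near the background, with a median of -0.01. The count of rises was 2 with median-of-ratios or upper-quartile scaling and 0 without pair 3 of MSTO-211H. The coactivator PPARGC1A fell by 0.75 ± 0.22 on the log2 scale (SE, limma adjusted p = 0.0122), a call that was lost without MSTO-211H, without its pair 1, with pseudocount 50 and with line means as units. Of 9 tested glucocorticoid receptor genes and targets 2 rose and 1 fell (22.2% and 11.1%, beside the same 5.58% and 9.37%), with a median of -0.06. SGK1, a kinase, rose by 0.76 ± 0.28 (SE, adjusted p = 0.0388) and the phosphatase DUSP1 by 0.61 ± 0.15 (SE, adjusted p = 0.00523), whereas FKBP5, a chaperone that is a common readout of the receptor, fell by 1.35 ± 0.16 on the log2 scale (SE, adjusted p = 1.93e-05). Neither of the rises was called without H2452, without MSTO-211H or without pair 1 of MSTO-211H. There was 1 called without H2052, without pair 1 of H2052 or of H2452, without pair 2 or 3 of MSTO-211H, with line means as units and with no filter. Without H28 3 genes of the list were called lower.

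Of the 14 hypoxia response genes 6 rose (42.9%, beside 5.58% of all tested genes) and none fell, with a median of 0.43 beside -0.11 for all tested genes. The largest rises were those of ADM, encoding adrenomedullin (1.37 ± 0.32, SE, limma adjusted p = 0.00295), NDRG1 (1.19 ± 0.26, SE, adjusted p = 0.00203) and EGLN3, an oxygen-sensing hydroxylase (1.00 ± 0.25, SE, adjusted p = 0.00543). CA9, a standard hypoxia marker, had a difference of -0.13 ± 0.15 (SE, adjusted p = 0.480) and was not called. This gene reached the filter level in only 1 DMSO and 1 palbociclib library of the sensitive lines. Changes at such low levels are understated on the scale used, so nothing is read from the missing call. The count of rises in the list was 4 without H2452 and 3 with line means as units. After washout 3 of the 14 were called above DMSO, where 2.81% of all tested genes were. Among the 3 were ADM at 1.55 ± 0.39 (SE, limma adjusted p = 0.0344) and NDRG1 at 1.11 ± 0.26 (SE, adjusted p = 0.0287). The washout count was 0 without H2052, without H2452 or without MSTO-211H.

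Of the 16 store-operated calcium entry and NFAT genes, the pathway known for TMEM178A, 1 rose and 1 fell (6.25% each, near the 5.58% and 9.37% of all tested genes), with a median of 0.00. ITPR2, a calcium release channel, rose by 0.91 ± 0.17 on the log2 scale (SE, limma adjusted p = 0.000869) and CRACR2B, a regulator of the calcium channel, fell by 0.61 ± 0.16 (SE, adjusted p = 0.00589). The count of rises went up to 4 with median-of-ratios or upper-quartile scaling, and was 3 without H28, without its pair 1, without pair 2 of H2052 or without pair 2 of MSTO-211H. It was 2 without H2052, without pair 1 of H2052, without pair 2 or 3 of H28, without pair 1 or 3 of MSTO-211H and with pseudocount 1. The fall was lost when any 1 pair of H2452 or pair 2 of H2052 was left out, without either of these lines, with either other scaling, with pseudocount 50 and with line means as units. In the resistant lines, where no tested gene was called, none of the genes in any of these lists was.

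The genes whose levels were most like those of each member over the 33 libraries differed between the 3. For DPP4 they were its antisense neighbour DPP4-DT (Pearson r = 0.986), BAIAP2L2 (0.944), AC005670.2 (0.917), AC004906.1 (0.913) and PPP2R2C (0.913). For ANGPTL4 they were GALNS (0.928), PHBP3 (0.915), PDIA3 (0.915), CATSPER2P1 (0.913) and TSPAN3 (0.899), and PHBP3 and CATSPER2P1 are pseudogenes whose reads may be shared with their parent genes. For TMEM178B they were ARHGAP1 (0.928), IL18 (0.889), FBN1 (0.881), PCDH1 (0.880) and BAG3 (0.868). The 3 genes were less like each other, with r = 0.44 between DPP4 and ANGPTL4, 0.55 between DPP4 and TMEM178B and 0.56 between ANGPTL4 and TMEM178B. The 33 libraries share lines and treatments, so the points are not independent, and the values carry no test.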

How the data were processed

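Per the labels, directional libraries were made from total RNA and sequenced as paired-end reads. The submitters' processing notes name Trimmomatic 0.36, STAR 2.5.3, HTSeq 0.9.1, DESeq2 and GRCh38, and the methods name Ensembl release 90. The authors scaled the counts of each library to 20000000 reads (CP20M). What they deposited is a scaled score that they had rounded up, not reads, so no count model was used. Columns add up to between 20007662 and 20021400. Gaps between low values gave the depth of 23 of 33 libraries, 12770000 to 19800000 reads (median 16390000), where 1 read is worth at most 1.57 CP20M. The other 10 had no gaps. Replicate libraries had equal values at no more than 4.33% of tested genes (22 library pairs). Labels give repeat experiments of each line. The p-values measure the spread of differences over lines and repeat experiments together, and repeats of 1 line count as separate units.

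Values were fitted as log2(CP20M + 10) with limma 3.58.1 (eBayes with trend) in R 4.3.3, with a filter at 100 CP20M and the experiment as a block, because the methods pair treated and control libraries. Deviations from group means correlated within the 13 pairs checked, at r between 0.18 and 0.78 (taken across genes, not independent replicates). The pairs of H2052 have the same r by construction, as do those of MPP89, so these are not 13 separate checks. Mismatched pairs were not compared. The fit was tested on simulated data. Alternatives were no block, pseudocounts 1 and 50, other filters and scalings, eBayes without trend, leaving out pairs or lines, and line means as units. Members and lists were chosen with earlier results of these data known. Named are the 3 genes, their families, up to 3 genes per pathway list with the largest called change over the sensitive pairs, the 8 largest rises among genes called and higher in all 11 pairs, and the 5 genes with the highest Pearson r to each member. Genes that stood for a marker check, a washout result or a contrast within a list were named after their values were seen. Positions and exon lengths are from GENCODE 44, another release than the authors' annotation. Figures were drawn with matplotlib 3.10.9. A few listed genes are left out of the text.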

Additional observations from a re-analysis of the deposited data

Results flagged for a closer look

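Among the 4 washout experiments, the log2 difference of DPP4 between washout and palbociclib was -0.21 in MSTO-211H against -0.52 to -0.54 in the other lines, a gap of 0.963 of the range over the 4 lines. The palbociclib libraries in it are among those that chose the gene, so this is a description of the spread and no test of the change. The ANGPTL4 level after washout was 1599 CP20M in H2452 against 23 to 145 in the other lines, which were lower in palbociclib too, a gap of 0.923 of the range. Both values were listed because the gap, as a share of the range, was above Dixon's 95% critical value for 4 values, which chance passes in about 1 in 20 such groups, and 9 groups were examined. The untreated MeT-5A library, which entered no comparison, had DPP4 at 32 CP20M, above the 10 CP20M of the DMSO library of that line. These values stand for 21 reads and 6 reads, and there is 1 library of each.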

How the results depend on the processing

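The differences of the 3 genes over the sensitive pairs kept their direction under all 24 alternatives and moved by less than the SD over pairs, from 1.86 to 2.88 for DPP4, 1.87 to 3.27 for ANGPTL4 and 1.71 to 2.86 for TMEM178B. In the resistant lines neither DPP4 nor TMEM178B was called under any alternative. No other tested gene was called there either, so this is not particular to these genes. Leaving out 1 pair each gave 0.15 to 0.36 for DPP4, 0.26 to 0.52 for ANGPTL4 and -0.058 to 0.023 for TMEM178B, which turned above 0 without MeT-5A, and ANGPTL4 could not be fitted with the filter within the fit. Washout differences kept their sign throughout, and that of TMEM178B from palbociclib was -0.50 with median-of-ratios scaling.

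Counts of all genes depended more on the setting. Over the sensitive pairs, 994 genes were higher and 1669 lower, against 113 and 826 with no replicate block, 642 and 1045 with pseudocount 50, and 482 higher with line means as units. Median-of-ratios scaling gave 1646 and 965, and upper-quartile scaling 1372 and 1135, with the median of all genes at 0.04 and -0.01 in place of -0.11. For washout against palbociclib (250 higher, 0 lower), no replicate block gave 0 higher, median-of-ratios scaling 149 higher and 1 lower, and eBayes without trend 1 lower. Leaving out 1 line gave 0 to 104 higher, with 0 without H2052, H2452 or MSTO-211H. For washout against DMSO (500 higher, 526 lower), no replicate block gave 0 and 0, pseudocount 50 gave 324 higher, and no filter 302 higher. Median-of-ratios and upper-quartile scaling gave 283 and 348 lower. Leaving out 1 line gave 81 to 345 higher and 123 to 414 lower, the lowest without MSTO-211H and without H2052, and 236 higher without H2452. The 3 genes were chosen on these pairs and carry no test. With the pairing taken out, their mean differences are the same by construction, but their SE is larger. It was 0.76 for DPP4, 1.06 for ANGPTL4 and 0.90 for TMEM178B, in place of 0.35, 0.47 and 0.36. The rises fell from 6 to 0 in the hypoxia list, from 3 to 0 for DPP4 substrates and for the lipoprotein lipase pathway, from 2 to 0 for glucocorticoid targets, from 1 to 0 for calcium entry and for the mesothelial markers, and from 2 to 1 in the DPP4 family without DPP4, and the falls of ANGPTL2, PPARGC1A and CRACR2B were lost. List counts stayed within 1.5 times in 1283 of 1416 alternatives. That tally includes counts of 0 that stayed at 0, among them all counts in the resistant lines, which could not move. The lists in it still held the 3 genes, so it is no measure of how stable the lists are. Values under about 10 CP20M rest on few reads.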
